A study of Mus musculus with 6 samples.

Results

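The Notch receptors *Notch1*, *Notch2*, *Notch3* and *Notch4*, the ligands *Dll1*, *Dll4*, *Jag1* and *Jag2*, the nuclear effector *Rbpj* and the target gene *Hes1* were followed by RNA-seq in mouse hearts at E9.5. These 10 genes were chosen by symbol from the 54532 genes of the count table, and all 10 were among the 19372 genes with enough counts to be tested. The libraries came from individual hearts of 3 *Smyd1-KO* and 3 WT embryos. *Smyd1* encodes a histone methyltransferase of striated muscle. *Smyd1-KO* embryos carried a mutated *Smyd1* allele on both chromosomes, so the gene was altered in every cell of the embryo and not in a single cardiac cell type. The WT embryos carried no mutated allele, neither genotype was treated, and embryos of both sexes were used. Nothing in the labels pairs a *Smyd1-KO* heart with a WT heart, and the question asked was which transcripts change when SMYD1 is missing shortly before the mutant hearts fail.

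Notch receptors are transmembrane proteins that are cut when a Delta or Jagged ligand on a neighboring cell pulls on them. The freed intracellular part enters the nucleus, binds RBPJ together with a Mastermind coactivator, and switches on genes of the HES and HEY families. In the embryonic heart the endocardium uses DLL4 and NOTCH1 to drive trabeculation of the adjacent myocardium, JAG1 acts in the outflow tract and valves, and NOTCH3 is best known from mural cells.

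In GRCm38, the build called mm10, *Notch1* lies at chr2:26457903-26516663, *Notch2* at chr3:98013527-98150361, *Notch3* at chr17:32120820-32166852 and *Notch4* at chr17:34564268-34588503. The ligand genes *Dll1* (chr17:15367354-15376872), *Dll4* (chr2:119325784-119335962), *Jag1* (chr2:137081456-137116644) and *Jag2* (chr12:112907819-112929776) and the genes *Rbpj* (chr5:53466152-53657362) and *Hes1* (chr16:30064384-30067796) are, like the receptors, protein coding, and each value below is summed over the exons of the gene.

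Total counts ran from 48627825 to 64217529 per heart. The targeted gene, *Smyd1*, stood at 101, 222 and 206 CPM (counts scaled to library size with TMM factors) in the *Smyd1-KO* hearts and at 414, 379 and 270 CPM in the WT hearts, so that the genotypes did not overlap (log2 fold change -1.01 ± 0.30, SE, adjusted *P*=0.0973 by edgeR's quasi-likelihood test). Transcript was still read in every mutant heart. The deleted part of the gene is not given in the sources used here, so these reads do not check the allele itself. *Smyd1-KO* heart 1 stood apart from the other hearts. In it, 61 tested genes were at 4 times or more the level of every other heart, against 0 to 16 genes in each of the others. The neural transcription factor *Pax6* was at 34.3 CPM in this heart and at 0.81 to 4.02 CPM elsewhere. *Sox1*, a neural gene with too few counts elsewhere to be tested, was at 29.9 CPM against 0.034 to 0.20 CPM. The summed level of 8 neural and presomitic markers was 155 CPM in this heart and 11.1 to 41.6 CPM in the other 5, and 10 cardiomyocyte markers summed to 8635 CPM against 11129 to 19363 CPM. Counts of called genes are therefore also given without this heart, as are fold changes of named genes where leaving it out changes the call or the direction. None of the cardiomyocyte markers was at 0 in any library.

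None of the 10 genes passed the test for a difference between genotypes, which set a limit of 0.05 on the adjusted *P* and of 0.5 on the size of the log2 fold change. Among all tested genes, 2.86% were called higher and 1.42% lower in *Smyd1-KO* hearts. The estimate was positive for 9 of the 10 genes, against 49.8% of all tested genes. The median log2 fold change was 0.25 against -0.0026 over all tested genes. Without *Smyd1-KO* heart 1 the estimates of *Notch2* (-0.07) and *Dll1* (-0.44) turned negative and that of *Rbpj* was 0.0037. At an unadjusted *P* under 0.05, *Dll4* was higher and *Jag1* was lower, which is 1 gene in each direction where 13.1% and 11.9% of all tested genes lay. All 3 *Smyd1-KO* hearts were above all 3 WT hearts for *Dll4* and *Notch3*, against 15.9% of all tested genes, and no member lay wholly below, against 15.5%. With DESeq2, *Dll4* alone was called (adjusted *P*=0.0042), where 5.78% of genes were called higher and 3.21% lower. Without *Smyd1-KO* heart 1, *Dll4* alone was called by edgeR (log2 fold change 0.73, adjusted *P*=0.0458), where 4.04% of genes were called higher and 2.23% lower. In a list of 10 genes, counts of 0 and 1 are near these shares.

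**Figure D1:**
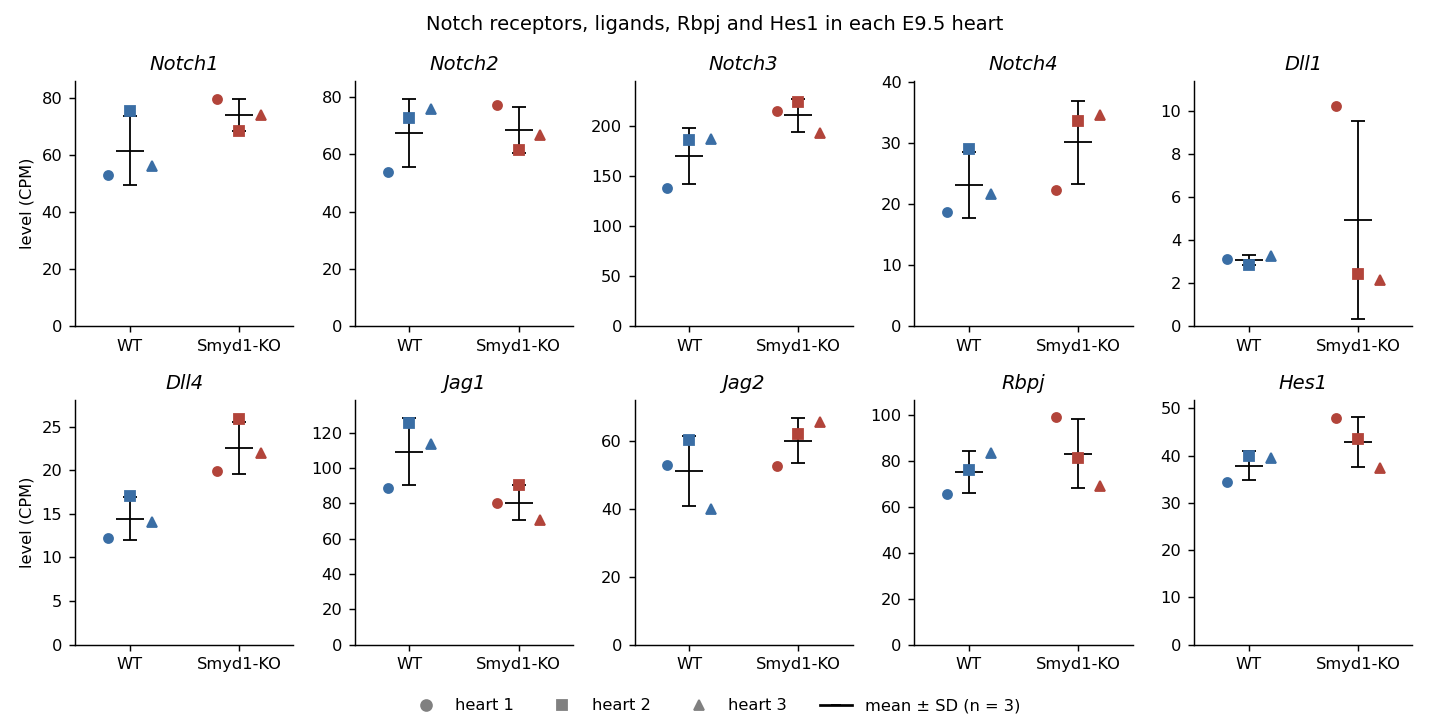
Levels of the 10 genes in CPM, with 1 panel per gene, WT hearts in blue and *Smyd1-KO* hearts in red, marker shape giving the heart number within its genotype, and black bars giving the mean ± SD (n = 3). *Dll4* and *Notch3* are the panels in which every *Smyd1-KO* heart lies above every WT heart, and *Dll1* is the panel in which *Smyd1-KO* heart 1, at 10.3 CPM, lies far from the other 5.

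Among the receptors, *Notch3* had the most counts. It was read at 215, 224 and 193 CPM in the *Smyd1-KO* hearts and at 138, 186 and 187 CPM in the WT hearts. The genotypes did not overlap, but the lowest mutant heart was close to the highest WT hearts, and the log2 fold change of 0.31 (95% interval -0.0055 to 0.62) did not pass the test (adjusted *P*=0.206 by edgeR). *Notch1*, the receptor of the endocardium and of arterial endothelium, was at 79.7, 68.4 and 74.1 CPM in mutant hearts and at 53.0, 75.5 and 56.4 CPM in WT hearts. WT heart 2 lay among the mutant hearts, and the log2 fold change was 0.26 ± 0.14 (SE, adjusted *P*=0.293 by edgeR). *Notch4*, which is largely restricted to endothelium, was at 22.3, 33.5 and 34.5 CPM against 18.6, 29.0 and 21.6 CPM. The ranges overlapped through *Smyd1-KO* heart 1, and the log2 fold change was 0.38 with all hearts and 0.56 without that heart (adjusted *P*=0.325 and 0.106 by edgeR). *Notch2* was the receptor with the smallest difference. It ranged from 61.5 to 77.2 CPM in mutant hearts and from 53.9 to 76.0 CPM in WT hearts, and its log2 fold change of 0.02 had a 95% interval of -0.33 to 0.37, and it was -0.07 without *Smyd1-KO* heart 1 (adjusted *P*=0.788 by edgeR).

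The balance between the receptors was compared within each heart, per length, as each receptor's share of the summed CPM per kb of all 4. *Notch3* made up 63.2%, 65.4% and 60.3% of receptor transcripts in the *Smyd1-KO* hearts and 60.8%, 59.5% and 62.8% in the WT hearts. Its mean share was 63.0% ± 2.55 against 61.0% ± 1.68 (SD, n = 3 each), a difference smaller than the spread between hearts (exact permutation *P*=0.4, two-sided). The share of *Notch2* was 17.0%, 13.5% and 15.7% in mutant hearts and 17.8%, 17.5% and 19.2% in WT hearts. It was the receptor whose share did not overlap between genotypes, at 2.76 percentage points lower in the mutants (exact permutation *P*=0.1, the smallest that 3 against 3 hearts allow, and 0.4 after adjustment over the 4 receptors). *Notch1* held 12.6% in both genotypes and *Notch4* held 9.06% ± 2.23 in mutants and 8.27% ± 1.02 in WT hearts, with overlapping ranges.

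**Figure D2:**
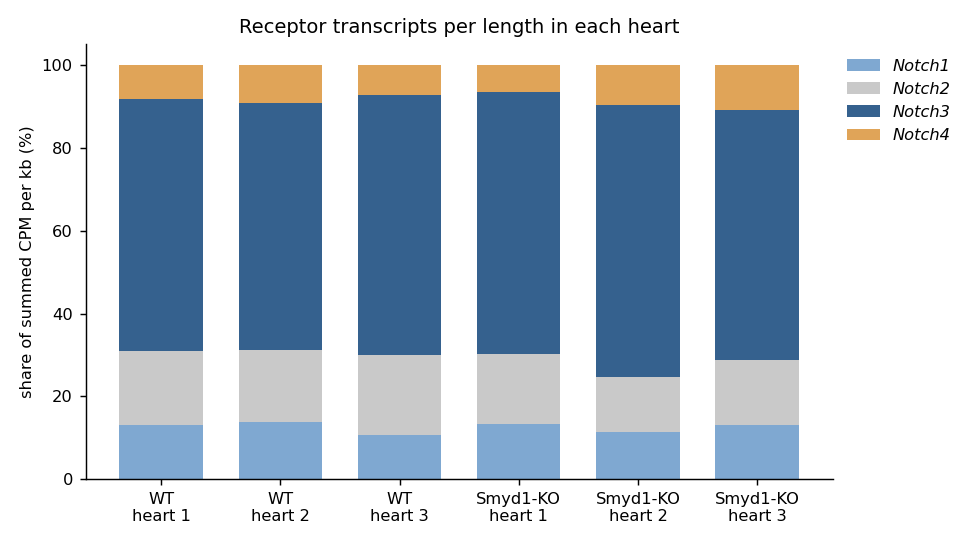
Share of each Notch receptor in the summed CPM per kb of the 4 receptors, in percent, with 1 stacked bar per heart. *Notch3* takes 59.5% to 65.4% of every bar, and *Notch2* takes 17.5% to 19.2% in WT and 13.5% to 17.0% in *Smyd1-KO* hearts.

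Among the ligands, *Dll4* and *Jag1* were the genes with an unadjusted *P* under 0.05, in opposite directions. *Dll4*, the Delta ligand of endocardium and arterial endothelium, was at 19.9, 25.9 and 22.0 CPM in the *Smyd1-KO* hearts and at 12.2, 17.1 and 14.0 CPM in the WT hearts. Every mutant heart exceeded every WT heart, and the means of 22.6 ± 3.01 and 14.4 ± 2.46 CPM (SD, n = 3) were 1.57-fold apart. The log2 fold change of 0.65 (95% interval 0.27 to 1.02) just missed the threshold (adjusted *P*=0.0636 by edgeR). It was called without *Smyd1-KO* heart 1 and in none of the fits that left out another heart, in which the adjusted *P* reached 0.189. *Dll4* shares 214 exonic bases with the gene *Gm14207* on the opposite strand. Whether the reads were counted by strand is not given in the sources used here, but *Gm14207* received 300 counts over all 6 hearts while *Dll4* received 727 to 1529 counts in each. *Notch1* (1068 bases), *Dll1* (867) and *Notch3* (488) also share exonic bases with a gene on the opposite strand. *Notch2* shares 541 with *Gm42820* on its own strand. The genes with these further overlaps received 13 to 200 counts over all 6 hearts.

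*Jag1*, a Jagged ligand of endocardium, outflow tract and smooth muscle, had an estimate in the other direction. It was at 80.1, 90.3 and 70.6 CPM in the *Smyd1-KO* hearts and at 88.5, 126 and 113 CPM in the WT hearts. WT heart 1 lay just under the highest mutant heart, so the genotypes overlapped, and the log2 fold change was -0.44 (95% interval -0.79 to -0.096, adjusted *P*=0.122 by edgeR). Without *Smyd1-KO* heart 1 the log2 fold change was again -0.44 (adjusted *P*=0.153 by edgeR).

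*Jag2*, the other Jagged ligand, was at 52.6, 61.9 and 65.6 CPM in mutant hearts and at 53.0, 60.3 and 39.9 CPM in WT hearts. The ranges overlapped and its log2 fold change was 0.23 ± 0.16 (SE, adjusted *P*=0.406 by edgeR). *Dll1*, a Delta ligand best known from the neural tube and somites, was the ligand with the fewest counts, 121 to 499 per heart. It was at 10.3, 2.42 and 2.12 CPM in the *Smyd1-KO* hearts and at 3.11, 2.84 and 3.27 CPM in the WT hearts. A single heart set its direction. The log2 fold change was 0.68 with *Smyd1-KO* heart 1 and -0.44 without it (adjusted *P*=0.511 and 0.212 by edgeR), and the neural markers given above were high in the same heart. The part of neural transcripts in the *Dll1* value was not tested.

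**Figure D3:**
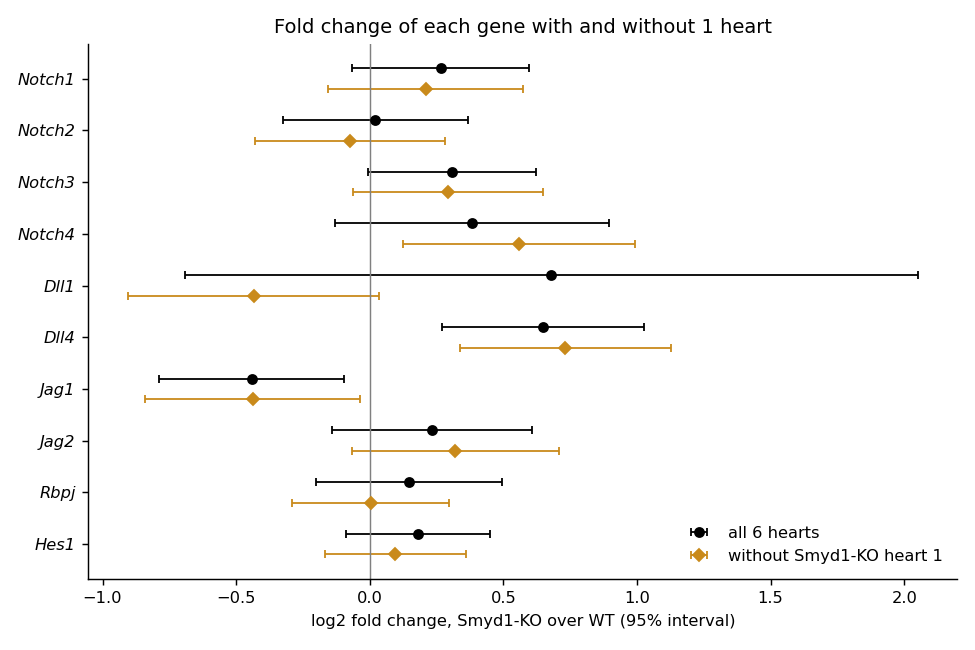
Log2 fold change of each gene, *Smyd1-KO* over WT, with its 95% interval, from all 6 hearts in black and without *Smyd1-KO* heart 1 in gold. *Dll4* lies at 0.65 and 0.73 and *Jag1* at -0.44 in both fits, whereas *Dll1* moves from 0.68 to -0.44.

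The start regions of *Dll4* and *Jag1* are shown because these 2 ligands had the smallest *P*-values and opposite signs. The stretch upstream of the annotated start was taken from RefSeq promoter windows of GRCm38.p6, for *Dll4* at chr2:119325534-119325783 on the plus strand and for *Jag1* at chr2:137116645-137116770 on the minus strand. Both lie outside the annotated gene, next to its first exon, and overlap with other genes was not checked. They are printed in lower case because neither of the motifs searched occurs in them.
Dll4: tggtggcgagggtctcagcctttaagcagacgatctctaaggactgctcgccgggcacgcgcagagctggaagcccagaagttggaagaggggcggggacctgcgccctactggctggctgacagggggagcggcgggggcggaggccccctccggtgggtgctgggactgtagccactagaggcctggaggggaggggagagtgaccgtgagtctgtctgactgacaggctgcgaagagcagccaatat
Jag1: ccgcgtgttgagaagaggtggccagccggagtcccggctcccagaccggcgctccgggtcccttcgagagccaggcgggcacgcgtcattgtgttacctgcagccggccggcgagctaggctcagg
The motifs were TGGGAA, the core of the site that RBPJ binds, and ACGTG, the core of the hypoxia response element, each searched on both strands of windows from 250 bases before to 50 bases after each start. Of 32851 promoter windows, 25.6% held TGGGAA and 19.6% held ACGTG. A window was found for 9 of the 10 genes. TGGGAA occurred in 1 of them, *Rbpj*, and ACGTG in 2, *Notch3* and *Rbpj*. These matches describe the letters of the windows.

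Neither the nuclear effector nor the target gene passed the test. *Rbpj*, which encodes the DNA-binding protein shared by all 4 receptors, was at 99.2, 81.3 and 69.4 CPM in the *Smyd1-KO* hearts and at 65.6, 76.3 and 83.8 CPM in the WT hearts. The ranges overlapped, and the log2 fold change of 0.15 with all hearts was 0.0037 without *Smyd1-KO* heart 1 (adjusted *P*=0.579 and 0.988 by edgeR). A processed copy, *Rbpj-ps3*, received 68 to 108 counts per heart, and how reads shared with it were counted is not given in the sources used here. *Hes1*, a transcriptional repressor and a direct target of Notch in many tissues, was at 47.9, 43.5 and 37.4 CPM in mutant hearts and at 34.4, 39.9 and 39.4 CPM in WT hearts. The ranges overlapped again, and its log2 fold change was 0.18 (95% interval -0.090 to 0.45, adjusted *P*=0.374 by edgeR) with all hearts and 0.096 without *Smyd1-KO* heart 1 (adjusted *P*=0.622).

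Levels were ordered per length, as CPM per kb of annotated exons. In WT hearts *Notch3* (21.1 ± 3.43, SD, n = 3), *Jag1* (18.7 ± 3.24) and *Hes1* (18.6 ± 1.48) were the highest, and each overlapped the next. All 3 were above *Jag2* at 7.33 CPM per kb in every heart. *Notch2* at 6.27, *Rbpj* at 5.90, *Notch1* at 4.33, *Dll4* at 3.75 and *Notch4* at 2.86 CPM per kb followed, each overlapping its neighbor in that order. *Dll1* was the lowest at 0.73 CPM per kb, apart from *Notch4*. In *Smyd1-KO* hearts *Notch3* (26.1 ± 1.99), *Hes1* (21.1 ± 2.60) and *Jag1* (13.8 ± 1.69 CPM per kb) no longer overlapped each other, and *Dll4* at 5.87 CPM per kb ranked above *Notch1* at 5.20 CPM per kb, with overlapping hearts. The order depends on the length used. With the longest protein-coding transcript in place of all exonic bases, *Hes1* ranked first in WT hearts at 25.8 CPM per kb and *Rbpj* moved above *Jag2*, at 13.7 CPM per kb.

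The opposite signs of *Jag1* and *Dll4* led to the comparison of their ratio, which was chosen after the values were seen and is given as a description with no test. Per length, *Jag1* was at 2.66, 2.31 and 2.12 times the level of *Dll4* in the *Smyd1-KO* hearts and at 4.79, 4.86 and 5.34 times in the WT hearts. The WT hearts lay close together, the mutant hearts likewise, and the ratio in mutants was 0.471 of that in WT. This ratio compares 2 genes within a heart and so does not depend on scaling between libraries, and *Smyd1-KO* heart 1 lay with the other mutant hearts. The ratio of *Jag1* to *Jag2* was also apart, at 1.29 to 1.82 in mutants and 1.996 to 3.39 in WT hearts, and the ratios of the other 4 ligand pairs overlapped. Over all pairs of the 10 genes, which include the 6 ligand pairs, 12 of 45 ratios were apart. The share over pairs of all tested genes was not computed, so these counts do not show whether such separations are unusual.

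Because most of these genes are active in endothelial cells, their levels were set beside those of endothelial genes. In whole hearts a change in the number of cells of a type and a change in RNA per cell cannot be told apart. The 10 pan-endothelial markers summed to 663, 772 and 998 CPM in the *Smyd1-KO* hearts and to 665, 701 and 588 CPM in the WT hearts. This was a log2 difference of 0.30 with overlapping hearts (exact permutation *P*=0.3, two-sided). Of these markers 8 had a positive and 2 a negative estimate, and *Robo4* (log2 fold change 1.64) and *Cldn5* (0.996) passed the test, which is 2 of 10 where 2.86% of all genes were called higher. Without *Smyd1-KO* heart 1 *Kdr* (0.86) and *Egfl7* (0.60) passed it as well, 4 of 10 against 4.04% of all genes. None of the 10 was at 0 in any heart. The 5 endocardial markers had estimates in the other direction. They summed to 123, 156 and 174 CPM in mutant hearts and to 221, 261 and 209 CPM in WT hearts, all mutant hearts below all WT hearts (log2 difference -0.62, exact permutation *P*=0.1). All 5 had negative estimates, between -0.83 and -0.52, and 0 passed the edgeR test with or without *Smyd1-KO* heart 1. All 5 had an unadjusted *P* under 0.05, where 11.9% of all genes were lower, and DESeq2 called 4 of them, against 3.21% of all genes. Of the 6 arterial markers, *Sox17*, a transcription factor of arterial endothelium, passed the test at a log2 fold change of 1.24 (adjusted *P*=0.0129 by edgeR), while 3 of the 6 had negative estimates.

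**Figure D4:**
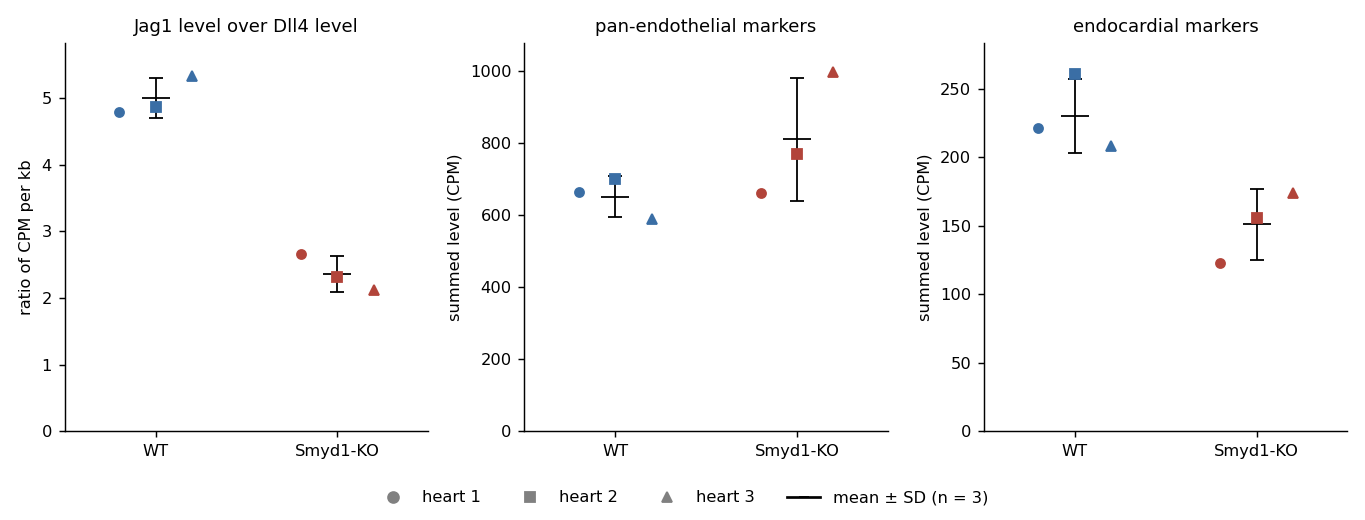
Ratio of *Jag1* to *Dll4* in CPM per kb, and the summed CPM of 10 pan-endothelial and 5 endocardial markers, per heart, with the mean ± SD (n = 3) in black. The ratio is 2.12 to 2.66 in *Smyd1-KO* and 4.79 to 5.34 in WT hearts, pan-endothelial markers overlap, and endocardial markers are lower in each mutant heart than in any WT heart.

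Relative to the summed pan-endothelial markers, *Jag1* alone was apart between genotypes. Its CPM was 12.1%, 11.7% and 7.08% of that sum in the *Smyd1-KO* hearts and 13.3%, 17.9% and 19.3% in the WT hearts (exact permutation *P*=0.1, adjusted *P*=1.0 over the 10 genes). Of all tested genes, 25.0% lay wholly below in the same comparison, so this count is at the background. *Dll4* was at 3.01%, 3.35% and 2.21% in mutant hearts and at 1.84%, 2.44% and 2.38% in WT hearts, which overlap. The answer depended on the markers chosen. Relative to the endocardial sum, 7 of the 10 genes (all but *Dll1*, *Jag1* and *Rbpj*) were higher in every mutant heart than in any WT heart, against 54.9% of all tested genes. The part of endothelial or endocardial cell number in the *Dll4* and *Jag1* values was not tested.

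A wider list of 51 genes of the Notch pathway, of which 49 had enough counts to be tested, gave 3 genes that rose and 0 that fell in *Smyd1-KO* hearts, against 2.86% and 1.42% of all tested genes. The estimate was positive for 34 and negative for 15, where 49.8% of all tested genes were positive, with a median log2 fold change of 0.15. At an unadjusted *P* under 0.05 there were 13 higher and 4 lower, against 13.1% and 11.9% of all genes. DESeq2 called 7 higher and 1 lower, against 5.78% and 3.21%. Without *Smyd1-KO* heart 1 edgeR called 6 higher and 1 lower, against 4.04% and 2.23%.

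The 3 genes that rose act at different steps. *Mfng* encodes the manic fringe glycosyltransferase, which adds a sugar to Notch receptors and alters their preference between Delta and Jagged ligands. It was at 11.3, 10.2 and 10.6 CPM in the *Smyd1-KO* hearts and at 4.55, 5.40 and 5.27 CPM in the WT hearts. The groups were far apart relative to their spread, and the log2 fold change was 1.08 ± 0.14 (SE, adjusted *P*=0.0111 by edgeR). *Mib2* encodes a ubiquitin ligase for Notch ligands. It was at 48.5, 56.4 and 62.8 CPM against 39.2, 38.8 and 33.8 CPM, again with no overlap (log2 fold change 0.59 ± 0.12, adjusted *P*=0.0357 by edgeR). *Aph1c* encodes a subunit of γ-secretase, the protease that releases the intracellular part of Notch. It was read at 0.80, 1.05 and 1.10 CPM in mutant hearts and at 0.42, 0.49 and 0.33 CPM in WT hearts, which is 22 to 63 counts per heart (log2 fold change 1.25, adjusted *P*=0.0448 by edgeR). Its value is uncertain because *Aph1b* is a close paralog with which reads could be shared. All 3 genes were also called without *Smyd1-KO* heart 1, with adjusted *P*-values of 0.0148 for *Mfng*, 0.0143 for *Mib2* and 0.0373 for *Aph1c* by edgeR. Leaving out *Smyd1-KO* heart 2, WT heart 2 or WT heart 3 ended the call of *Mfng* (adjusted *P* of up to 0.0698 by edgeR), and leaving out any heart but *Smyd1-KO* heart 1 ended the calls of *Mib2* (up to 0.136) and *Aph1c* (up to 0.146).

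**Figure D5:**
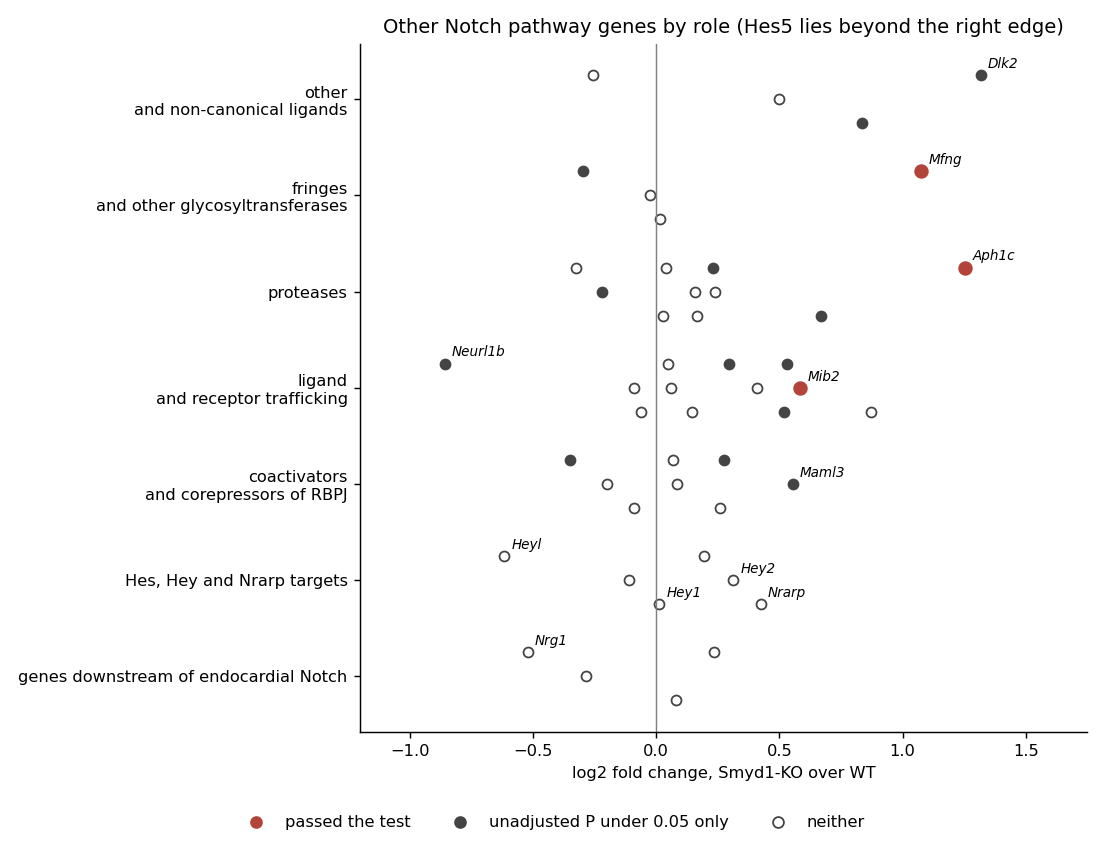
Log2 fold change, *Smyd1-KO* over WT, of 48 other Notch pathway genes in rows by role, red for genes that passed the test, black for an unadjusted *P* under 0.05 alone, open for neither. *Mfng*, *Mib2* and *Aph1c* are the red points, and *Hes5*, at 3.30, lies beyond the right edge.

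Of the 7 tested HES, HEY and Nrarp target genes, 5 had a positive and 2 a negative estimate, where 49.8% of all tested genes were positive. *Hey1*, a repressor of endothelium and atrial myocardium, had a log2 fold change of 0.01, and *Nrarp*, a feedback inhibitor that Notch induces, 0.43. *Heyl* was at -0.62. By edgeR 0 of the 7 passed the test, against 2.86% of all tested genes called higher and 1.42% lower. DESeq2 also called 0, against 5.78% and 3.21%. At an unadjusted *P* under 0.05 there was 1, *Hes5*, which was higher, against 13.1% and 11.9%. Without *Smyd1-KO* heart 1 edgeR called 1, *Hey2*, which was higher, against 4.04% and 2.23%. In a list of 7 genes, counts of 0 and 1 are near these shares. *Hey2*, a repressor of compact ventricular myocardium, was at 31.5, 63.3 and 57.1 CPM in mutant hearts and at 42.6, 42.9 and 36.9 CPM in WT hearts. *Smyd1-KO* heart 1 was the lowest and the other mutant hearts the highest of the 6. Its log2 fold change was 0.31 with all hearts and 0.56 without that heart (adjusted *P*=0.46 and 0.0242 by edgeR). *Hes5*, a target best known from neural progenitors, was at 4.34 CPM in *Smyd1-KO* heart 1 and at 0.10 to 0.24 CPM in the other 5. Its log2 fold change was 3.30 with that heart and 0.33 without it (adjusted *P*=0.167 and 0.73 by edgeR). *Hes3*, another neural HES gene that was not tested for want of counts and was named after its values were seen, was at 6.44 CPM in that heart and at 0 to 0.053 CPM elsewhere. *Dtx4*, which encodes a deltex ubiquitin ligase and was also named after its values were seen, was at 44.9 CPM there against 6.53 to 12.6 CPM. *Hes5*, *Hes3* and *Dtx4*, like *Dll1*, stood highest in *Smyd1-KO* heart 1, where the summed neural and presomitic markers were highest as well. Neural transcripts were also read in other hearts, with *Sox2* at 8.51 to 32.8 CPM in the other 5 against 81.3 CPM in heart 1. The part of neural transcripts in these values was not tested.

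The 4 ligands outside the main family, the 8 RBPJ cofactors and the 4 genes downstream of endocardial Notch gave 0 calls by edgeR. Over all tested genes 2.86% were called higher and 1.42% lower. At an unadjusted *P* under 0.05, 4 genes were higher and 1, *Rita1* (log2 fold change -0.35), was lower, against 13.1% and 11.9% of all genes. DESeq2 called 3 higher and 0 lower, against 5.78% and 3.21%. *Dlk2*, a non-canonical ligand, had a log2 fold change of 1.32 at 0.32 to 1.38 CPM per heart (adjusted *P*=0.101 by edgeR, and 0.032 without *Smyd1-KO* heart 1). *Maml3*, a Mastermind coactivator of the RBPJ complex, was at 46.1, 42.3 and 33.7 CPM against 25.1, 30.6 and 27.4 CPM (log2 fold change 0.55, adjusted *P*=0.064 by edgeR). *Neurl1b*, a ubiquitin ligase for ligands, belongs to none of the groups just named and had the most negative estimate of the wider list. It was at 12.2, 20.2 and 18.6 CPM in mutant hearts and at 31.6, 35.3 and 25.6 CPM in WT hearts (log2 fold change -0.86, adjusted *P*=0.0605 by edgeR, 0.00191 by DESeq2). Without *Smyd1-KO* heart 1 it was called by edgeR (-0.67, adjusted *P*=0.0469). It was named after its values were seen. *Nrg1*, the endocardial growth factor downstream of Notch that acts on myocardium, had a log2 fold change of -0.52 ± 0.31 (SE, adjusted *P*=0.336 by edgeR), and *Efnb2*, *Bmp10* and *Snai1*, the other genes downstream of endocardial Notch, lay between -0.29 and 0.24.

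The genes whose levels ran most nearly parallel to *Dll4* over the 6 hearts were *Mindy2*, *Prkacb* and *Neil2*, with Pearson's r of 0.997, 0.995 and 0.995 of log2 CPM among the 13049 genes whose mean log2 CPM was 1 or more. The points share genotype, library and depth, and with so many genes set against 6 hearts these values serve as a description only.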

How the data were processed

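RNA of individual E9.5 hearts, 3 *Smyd1-KO* and 3 WT, was measured by RNA-seq. The authors selected poly A RNA, aligned paired-end reads to mm10 with STAR and deposited raw counts of reads per gene. The counting tool and its strand setting are not given in the sources used here. A deposited normalized table was not used. Gene positions and exon lengths came from GENCODE annotation of GRCm38.

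edgeR 4.0.16, run in R 4.3.3, was used to compare the genotypes (filterByExpr, TMM, quasi-likelihood test, Benjamini-Hochberg adjustment over 19372 genes). CPM use the TMM factors. Summed or relative levels were compared with two-sided exact permutation tests in scipy 1.17.1, where 3 against 3 hearts allow no *P* below 0.1. The tests were tried on simulated data. Alternatives were DESeq2 1.42.0, other normalizations and filters, the replicate block and each heart left out.

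Groups came from the labels. *P*-values by edgeR and DESeq2 set the difference between genotypes against the spread between these hearts. Permutation *P*-values rank that difference among the possible regroupings of the hearts. The genes, lists and tests were chosen with earlier results of these data known. All 10 genes are named, and for the wider lists every called gene, the main target genes, the gene with the smallest *P* of each role and the 3 highest markers, with exceptions stated. Some genes of these lists are not reported here.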

Additional observations from a re-analysis of the deposited data

How the results depend on the processing

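DESeq2 called 1748 genes, 1 member (*Dll4*) and 8 other pathway genes. The other counts are by edgeR. Over all genes the count fell from 830 to 59 with the replicate block, and ran from 97 (without WT heart 2) to 1256 (without *Smyd1-KO* heart 1) when 1 heart was left out. Same-numbered hearts did not deviate together (correlations -0.216, -0.054 and -0.182), which gave no sign that the numbers pair hearts. With 3 hearts per genotype, 1 of them far apart, this check cannot exclude a pairing. With the block 0 of 10 members and 0 of 49 other pathway genes were called, against 59 of all 19372 tested genes. Counts of 0 in these lists are near that share. At an unadjusted *P* under 0.05 there were 3 members and 13 other pathway genes, against 3616 of all 19372. Members called were 1 (*Dll4*) with no filter on low counts, where 1025 of 33160 genes were called, and 0 to 1 without a heart. Other pathway genes called ran from 0 (without *Smyd1-KO* heart 2, WT heart 2 or WT heart 3) to 7 (without *Smyd1-KO* heart 1). Over all genes, the fits with 0 called 248 of 19974, 97 of 19842 and 171 of 19826, in that order. The fit with 7 called 1256 of 20009. Fold changes of the 21 members and named pathway genes were recomputed in 293 alternatives. Of these, 262 kept direction and call, 17 lost a call, 9 gained one and 5 changed sign. The sign changes came on leaving out a heart, with log2 fold changes from -0.111 to 0.116 for *Notch2*, -0.435 to 1.04 for *Dll1* and -0.128 to 0.115 for *Hey1*. The cause was not tested.

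With endocardial in place of pan-endothelial markers the summed difference was -0.616, and 7 members were apart instead of 1. The relative log2 differences that had been negative turned positive. They were then 0.896 for *Notch1*, 0.646 for *Notch2*, 0.905 for *Dll1*, 0.863 for *Jag2*, 0.755 for *Rbpj* and 0.792 for *Hes1*. That of *Jag1* went from -0.732 to 0.182. *Notch3*, *Notch4* and *Dll4* had been positive already (0.021, 0.081 and 0.354) and stayed so. With the mean of log2 CPM the difference turned negative for *Notch3* (-0.131) and *Notch4* (-0.071). When a heart was left out, 1 to 3 members were apart. Groups of 2 against 3 hearts separate more easily than 3 against 3, and the share of all tested genes apart was not computed for them. The summed pan-endothelial difference was 0.138 to 0.433 with a heart left out, and that in the share of *Notch3* 0.741 to 3.28 points. Relative to pan-endothelial markers the left-out hearts gave -0.208 to 0.14 for *Notch1*, -0.139 to 0.244 for *Notch3*, -0.078 to 0.205 for *Notch4*, -0.871 to 0.563 for *Dll1*, -0.147 to 0.043 for *Jag2*, -0.428 to 0.125 for *Rbpj* and -0.34 to 0.134 for *Hes1* on the log2 scale. Shares of receptors changed by -0.89 to 0.646 points for *Notch1* and -0.099 to 2.036 points for *Notch4*.

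The members had 121 to 13257 counts per heart, and each genotype had 3 hearts, which limits the precision of every value.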

Other observations

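The other cell type markers also differed in direction between lists. All 9 erythroid markers had negative estimates and *Gata1* (log2 fold change -3.14) and *Alas2* (-2.19) fell by edgeR's test, while the globin genes *Hba-x* (-2.82), *Hbb-bh1* (-2.80) and *Hbb-y* (-2.03), the most abundant of the list, did not pass it. DESeq2 called 6 of the 9, *Hba-x* and *Hbb-bh1* among them, and edgeR called 8 without *Smyd1-KO* heart 1, with all 3 globin genes (-2.31, -2.30 and -1.51). Over all tested genes 1.42% were called lower by edgeR, 3.21% by DESeq2 and 2.23% by edgeR without that heart. The list summed to 28.0 to 282 CPM in *Smyd1-KO* hearts and to 746 to 996 CPM in WT hearts. The 5 epicardial and proepicardial markers all had positive estimates, led by *Upk3b* (1.33), *Wt1* (1.11) and *Tbx18* (0.50). None of them passed edgeR's test, where 2.86% of all genes were called higher. An unadjusted *P* under 0.05 was found for 2, against 13.1% of all genes higher, and DESeq2 called 2, against 5.78%. Without *Smyd1-KO* heart 1 edgeR called 3, *Upk3b* (1.63), *Wt1* (1.40) and *Tbx18* (0.76), against 4.04% of all genes. They summed to 137 to 255 CPM in mutant hearts and 100 to 124 CPM in WT hearts.

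The remaining lists overlapped between genotypes in their sums. Smooth muscle and pericyte markers summed to 1296 to 2320 CPM in mutant hearts and 1603 to 2905 CPM in WT hearts (*Acta2* -0.25, *Cnn1* -0.29 and *Pdgfrb* 0.26 on the log2 scale), and venous and lymphatic markers to 414 to 506 and 404 to 494 CPM (*Ephb4* 0.04, *Nrp2* -0.06, *Nr2f2* -0.02). The abundant cardiomyocyte genes *Actc1* (-0.12), *Myh6* (-0.71) and *Myh7* (0.62), the abundant endothelial genes *Kdr* (0.70), *Cdh5* (-0.01) and *Tie1* (-0.10), the endocardial genes *Gata5* (-0.58), *Npr3* (-0.52) and *Nfatc1* (-0.83), and the arterial genes *Unc5b* (-0.06) and *Nrp1* (0.29) did not pass edgeR's test with all hearts. Of these, *Kdr* (0.86) and *Myh7* (0.92) passed it without *Smyd1-KO* heart 1, and DESeq2 called *Kdr*, *Gata5*, *Npr3* and *Nfatc1*. The neural genes *Sox2* (1.23) and *Pax6* (2.15), which were high in *Smyd1-KO* heart 1, passed neither edgeR fit and stood at 0.25 and -0.79 without that heart.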
